A study of Mus musculus with 15 samples.

Results

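The 10 genes Lamp1, Lamp2, Scarb2, Mcoln1, Psap, Grn, Lipa, Tfeb, Tfe3 and Mitf encode proteins of the lysosome membrane, proteins that digest or help to digest lipid inside the lysosome, and transcription factors that control lysosome genes. They were taken by name, as all probe sets annotated to exactly 1 of these symbols, with the brightest probe set standing for its gene. They are 10 of 18193 genes on the arrays, and 22 of 45037 probe sets. All 10 passed the filter on dim genes, as did 11925 genes in all. Each of 3 diet groups had 5 arrays, of RNA from foam cells cut by laser from the aortic sinus.

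Every mouse was ApoE-/- on the C57BL/6 strain, the controls included, and so lacked apolipoprotein E, the ligand that clears remnant lipoproteins from blood. CHOW mice ate regular chow until week 22. The 2w-WD mice ate a western-type diet for 2 weeks, and the 14w-WD mice ate it for 14 weeks, starting in week 8 and ending in week 22. For 2w-WD the study's outline starts the diet in week 22 and ends it in week 24, whereas the labels speak of 20 weeks on chow beforehand, so the sources differ on the age of that group at sampling. No statement ties an array to an animal, and p-values therefore cover no more than the scatter of the samples at hand, part of which may be technical.

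A foam cell is a macrophage that has taken up modified lipoproteins, and the lysosome is where it breaks them down. LIPA, the lysosomal acid lipase, splits cholesteryl esters and triglycerides, and NPC2 and NPC1 then carry the free cholesterol to and through the membrane. Prosaposin (Psap) is cut into saposins, which lift sphingolipids out of membranes for their hydrolases, and progranulin (Grn) travels with prosaposin and is cut into granulins in the lysosome. LAMP1 and LAMP2 make up much of the protein of the lysosome membrane, LIMP-2 (Scarb2) brings glucocerebrosidase to the lysosome, and TRPML1 (Mcoln1) lets calcium out of it. TFEB, TFE3 and MITF are related transcription factors that mTORC1 holds in the cytoplasm of fed cells, and that calcineurin, activated by calcium from TRPML1, releases to the nucleus. They bind short elements around CACGTG in many lysosome promoters, and much of their control acts on the protein rather than on its mRNA.

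Levels are given as log2(intensity + 16), so a difference of 1 is a doubling on that scale, and changes of dim genes are understated. Levels of different probe sets cannot be set against each other. The arrays' median intensities lay between 31.7 and 38.2, and levels of array pairs correlated at 0.862 to 0.972. Of 12 macrophage genes, Csf1r was bright, with a mean level of 14.13 (CHOW), 14.12 (2w-WD) and 14.08 (14w-WD). Ctss, Lyz2, Tyrobp, Mpeg1, Adgre1 and Mertk were bright as well, from 12.71 (Mertk) to 14.00 (Ctss) in CHOW. Cd68 and Fcgr1 lay at 11.52 and 10.40 in CHOW. The rest of the list was dim. Itgam was below the filter, Cx3cr1 lay at 6.05 (CHOW), 6.18 (2w-WD) and 6.82 (14w-WD), and Cd14 at 7.42 (CHOW), 6.61 (2w-WD) and 7.99 (14w-WD). The heart muscle gene Myh6 was bright too, at 13.31 (CHOW), 14.44 (2w-WD) and 14.08 (14w-WD). The mean of 15 heart muscle genes was 9.78 ± 1.72 (CHOW), 11.14 ± 1.05 (2w-WD) and 10.57 ± 0.85 (14w-WD), a wide spread within each group (SD, n = 5 each). The listed genes are used by many cell types, and in such material fewer cells of a type and less RNA per cell cannot be told apart. The mean of all 12 macrophage genes, Itgam included, was 11.42 ± 0.16 in 14w-WD and 11.02 ± 0.22 in 2w-WD (SD, n = 5 each). Its exact permutation p was 0.0159, two-sided, and 0.0952 after adjustment over 12 tests, where 0.00794 is the smallest p possible. The mean of 8 fibroblast genes was 10.92 ± 0.22 in 14w-WD and 10.37 ± 0.40 in 2w-WD (SD, n = 5 each), with 7 of 8 above 0 between these groups, and Pdgfra (1.95, adjusted p = 0.0291) and Col1a1 (1.05, adjusted p = 0.0402) passing limma's test as higher in 14w-WD. Probe sets brighter than an intensity of 100 made up 24.8% ± 1.79 of each array in 14w-WD and 20.9% ± 2.86 in 2w-WD (SD, n = 5 each; exact permutation p = 0.0317, adjusted 0.119). None of 6 tested smooth muscle, 4 endothelium, 4 T and B cell and 3 neutrophil genes passed in 14w-WD against 2w-WD. The median differences of these lists were 0.098, -0.081, 0.30 and -0.66, beside 0.23 for all genes. The part of these measures in the results below was not tested beyond the alternative fits given with them.

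Replicate 4 of 2w-WD stood apart. It held the lowest level of the 15 arrays for 8 of the 10 genes, and the lowest in its group for 9, with Tfeb the exception. Its brightest probe set read 23187, the lowest such value of all arrays, and its share of probe sets above 100 was 18.2%. Its effect on the calls is given with the results.

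Lipa, Lamp1 and Psap were the members that passed the test between diet groups. All 3 were higher in 14w-WD than in 2w-WD, by 1.53-fold, 1.29-fold and 1.23-fold, with adjusted p of 0.0365, 0.0389 and 0.0421 (limma, Benjamini-Hochberg over 11925 genes). That comparison called 11.2% of all genes tested, 10.1% as higher and 1.15% as lower, so 3 of 10 is to be read against a broad shift between these groups. No member passed in 2w-WD against CHOW, where the share of all genes called was 0%, or in 14w-WD against CHOW, where it was 0.00839%. At an unadjusted p under 0.05, limma gave 4 members in 2w-WD against CHOW (9.76% of all genes), 0 in 14w-WD against CHOW (15.9% of all genes) and 4 in 14w-WD against 2w-WD (32.1% of all genes).

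**Figure D1:**
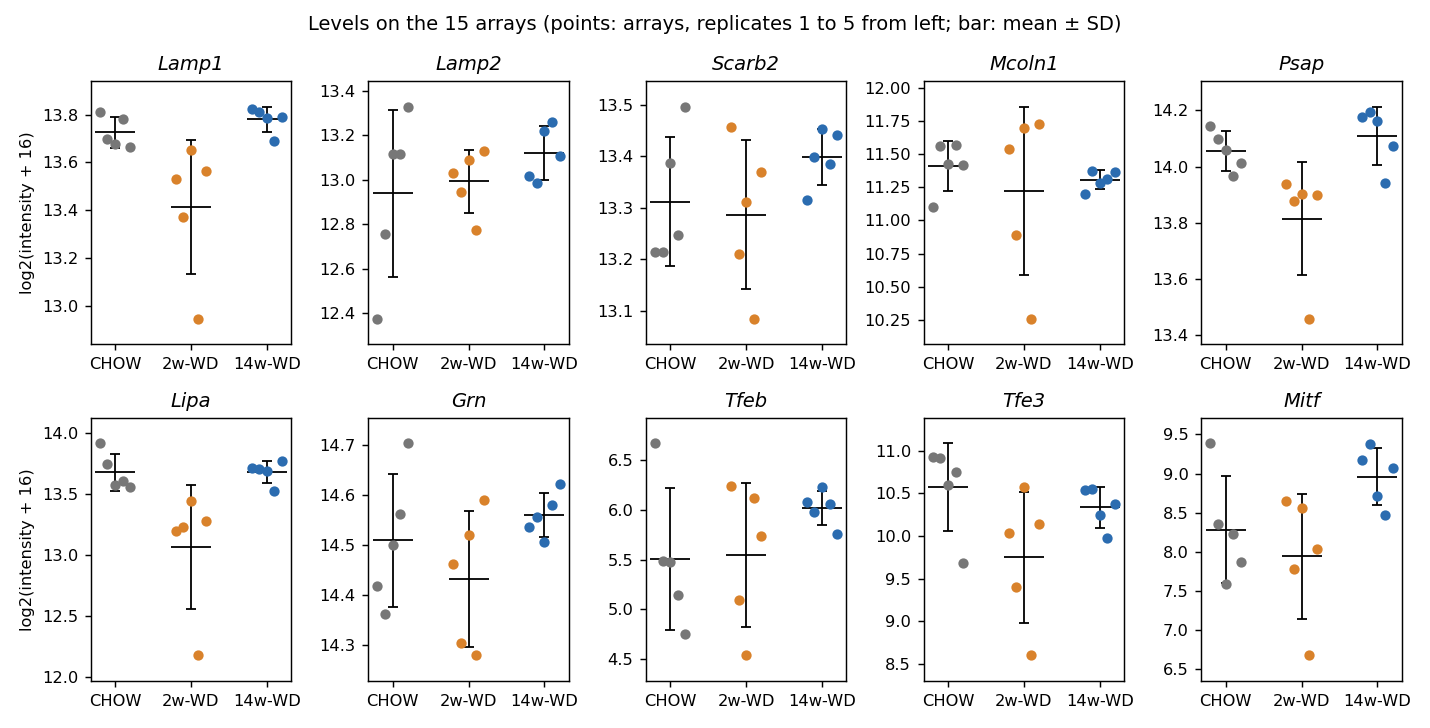
Level of each gene, as log2(intensity + 16) on a vertical axis of its own, on the 5 arrays of CHOW, 2w-WD and 14w-WD. Points are arrays in the order of their replicate number, and bars give the group mean and SD. For Lamp1, Psap and Lipa the 2w-WD points lie below those of both other groups.

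The promoters of the 3 genes that passed are printed here, with that of Mcoln1, because CACGTG was found among the 10 genes only in Lamp1 and Mcoln1. Sequences are RefSeq's for mouse build GRCm38.p6, 5′ to 3′ on the gene's strand, the 250 bases before the annotated start, with each CACGTG in capitals. Lamp1 is chr8:13158911-13159160 on the plus strand, Mcoln1 chr8:3500269-3500518 plus, Psap chr10:60277378-60277627 plus, the first of its 2 windows, and Lipa chr19:34527475-34527724 minus.
Lamp1: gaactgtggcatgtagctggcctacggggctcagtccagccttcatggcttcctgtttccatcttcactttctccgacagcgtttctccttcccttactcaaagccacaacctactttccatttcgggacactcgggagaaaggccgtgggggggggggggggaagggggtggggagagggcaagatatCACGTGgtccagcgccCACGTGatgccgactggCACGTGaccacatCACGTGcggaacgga
Mcoln1: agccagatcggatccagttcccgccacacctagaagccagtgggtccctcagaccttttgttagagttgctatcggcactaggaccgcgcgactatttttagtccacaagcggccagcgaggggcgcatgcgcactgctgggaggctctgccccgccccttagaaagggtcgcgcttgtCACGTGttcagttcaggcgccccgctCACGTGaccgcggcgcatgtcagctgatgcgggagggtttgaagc
Psap: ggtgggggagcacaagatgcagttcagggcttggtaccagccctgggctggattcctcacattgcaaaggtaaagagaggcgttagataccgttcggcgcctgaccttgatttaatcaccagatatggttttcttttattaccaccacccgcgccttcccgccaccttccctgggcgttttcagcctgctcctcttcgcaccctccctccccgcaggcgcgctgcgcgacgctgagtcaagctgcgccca
Lipa: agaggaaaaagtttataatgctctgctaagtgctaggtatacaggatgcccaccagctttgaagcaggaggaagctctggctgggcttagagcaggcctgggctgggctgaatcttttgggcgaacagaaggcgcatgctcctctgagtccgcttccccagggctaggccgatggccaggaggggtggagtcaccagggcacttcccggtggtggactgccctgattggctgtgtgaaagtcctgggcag

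CACGTG reads the same on both strands, and it was counted in windows of 250 bases before to 50 after each start. It was present in 7.15% of 32851 such windows, and in 2 of the 16 windows of the 10 genes. Lamp1 had 4 copies, beginning 61, 45, 28 and 15 bases before the start, and only 8 of all windows held 4 or more (0.0244%). Mcoln1 had 2 copies, beginning 71 and 45 bases before the start, and 0.594% of windows held 2 or more. The variant TCATGTG, searched on both strands, lay in 3.77% of windows and in those of Scarb2 and Grn, beginning 32 and 210 bases before their starts. A match of letters is a description only, and its absence, as in Lipa and Psap, says no more than that these letters are not in the window.

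Lamp1, which encodes a main glycoprotein of the lysosome membrane, had levels of 13.81, 13.70, 13.68, 13.78 and 13.66 on the CHOW arrays, 13.53, 13.37, 13.65, 12.95 and 13.56 on those of 2w-WD, and 13.83, 13.81, 13.78, 13.69 and 13.79 on those of 14w-WD. Every 2w-WD array lay below every array of both other groups, though the highest of 2w-WD and the lowest of CHOW were close, and CHOW and 14w-WD overlapped. In 14w-WD Lamp1 was 0.37 higher than in 2w-WD on the log2 scale (SE 0.11, 95% interval 0.14 to 0.59, adjusted p = 0.0389). In 2w-WD against CHOW the difference was -0.31 (SE 0.11, adjusted p = 0.480), and in 14w-WD against CHOW it was 0.054 (interval -0.17 to 0.28). The comparisons share arrays, so the 2w-WD arrays enter both of the larger differences.

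Lamp2, the other main glycoprotein of the membrane, one isoform of which is the receptor of chaperone-mediated autophagy, ranged from 12.37 to 13.33 (CHOW), 12.77 to 13.13 (2w-WD) and 12.98 to 13.26 (14w-WD). CHOW was the widest group, with replicate 1 at its lower end, and the 3 groups overlapped. The log2 difference was 0.13 in 14w-WD against 2w-WD (adjusted p = 0.582), 0.055 in 2w-WD against CHOW and 0.18 in 14w-WD against CHOW, none past the test.

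Scarb2, whose product carries glucocerebrosidase and also passes cholesterol through the membrane, had, with Grn, the smallest spread of the 10 genes over the 15 arrays (SD 0.12). Its group means were 13.31 ± 0.13 (CHOW), 13.29 ± 0.14 (2w-WD) and 13.40 ± 0.055 (14w-WD; SD, n = 5 each). The interval of the difference between 14w-WD and 2w-WD ran from -0.082 to 0.31 on the log2 scale (adjusted p = 0.405).

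Mcoln1, the TRPML1 calcium channel, had levels of 11.54, 10.89, 11.70, 10.26 and 11.73 in 2w-WD, a wide spread with replicates 2 and 4 low. CHOW ran from 11.10 to 11.57 and 14w-WD from 11.20 to 11.37, both inside the range of 2w-WD. The difference between 14w-WD and 2w-WD was 0.082 (interval -0.45 to 0.62, adjusted p = 0.841), -0.10 after quantile normalization and -0.16 without 2w-WD replicate 4, so this probe set gives no direction. A dimmer probe set, 1416671_a_at, was 0.495 higher in 14w-WD and did not pass (limma over probe sets, adjusted p = 0.115). Its lowest 14w-WD level, 6.39, lay just above its highest 2w-WD level, 6.35. Without 2w-WD replicate 4 it differed by 0.49 (adjusted p = 0.195). The share of all probe sets with no overlap was not counted.

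Lipa showed the largest change among the 3 genes that passed. Its levels were 13.92, 13.74, 13.57, 13.61 and 13.55 for CHOW, 13.20, 13.23, 13.44, 12.17 and 13.28 for 2w-WD, and 13.72, 13.70, 13.69, 13.53 and 13.77 for 14w-WD. All 2w-WD arrays lay below all arrays of the other groups, replicate 4 by the widest margin. The log2 difference was 0.61 in 14w-WD against 2w-WD (SE 0.18, interval 0.24 to 0.99, adjusted p = 0.0365) and -0.61 in 2w-WD against CHOW (SE 0.18, adjusted p = 0.480). Between 14w-WD and CHOW the estimate was 0.000757, with an interval from -0.37 to 0.37, and its sign turned under other scalings.

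Psap, the precursor of the saposins, had 14.14, 14.10, 14.06, 13.96 and 14.01 for CHOW, 13.94, 13.88, 13.90, 13.46 and 13.90 for 2w-WD, and 14.17, 14.19, 14.16, 13.94 and 14.07 for 14w-WD. The 2w-WD arrays were again all lowest, but the highest of them and the lowest of 14w-WD differed by little. In 14w-WD Psap was 0.29 higher than in 2w-WD (SE 0.088, interval 0.11 to 0.48, adjusted p = 0.0421). In 2w-WD against CHOW it was -0.24 (SE 0.088, adjusted p = 0.485), and in 14w-WD against CHOW 0.054 (interval -0.13 to 0.24).

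Grn, the progranulin precursor, had group means of 14.51 ± 0.13 (CHOW), 14.43 ± 0.14 (2w-WD) and 14.56 ± 0.044 (14w-WD) on its brightest probe set (SD, n = 5 each). The difference of 0.13 between 14w-WD and 2w-WD did not pass (interval -0.023 to 0.28, adjusted p = 0.221), nor did that of -0.078 between 2w-WD and CHOW (adjusted p = 0.703). A level of this size is close to the brightest readings of the arrays.

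Lamp1, Psap and Lipa were the 3 members with no overlap between 14w-WD and 2w-WD, where 8.63% of all genes had none and 7.06% had none with 14w-WD higher, and between 2w-WD and CHOW, where 1.12% had none and 0.83% had none with 2w-WD lower. No member was free of overlap between 14w-WD and CHOW (4.87% of all genes). All 10 members had a difference above 0 in 14w-WD against 2w-WD in the fit reported, beside 65.2% of all genes. Tfeb is among them only because its 14w-WD level lifted its mean over the filter, so the filter favoured its sign. Mcoln1 lay below 0 after quantile normalization, with array weights, with the bright share or the gap between probe sets as a covariate, and without 2w-WD replicate 2 or 4, and Tfeb lay below 0 with the bright share as a covariate. Their median was 0.33, and that of all genes 0.23. Relative to that general shift Lipa stood 0.38 higher, Lamp1 0.14 higher and Psap 0.064 higher. The 11 tested macrophage genes had a median of 0.36 in the same comparison, with 10 above 0 and Tyrobp called higher. No fit used the macrophage mean as a covariate, and whether Lamp1, Psap or Lipa differed more than macrophage genes in general was not tested. In 2w-WD against CHOW 8 of the 10 members lay below 0, with a median of -0.22 beside -0.097 for all genes. In 14w-WD against CHOW the members' median was 0.054 beside 0.16.

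Without 2w-WD replicate 4, Lipa kept its call (0.39, adjusted p = 0.0391), while Lamp1 at 0.25 (adjusted p = 0.0587) and Psap at 0.21 (adjusted p = 0.0722) did not, and the share of all genes called was 2.18%. Leaving out 1 array at a time gave 0 members called without 2w-WD replicate 2 or without 14w-WD replicate 1, 2, 3 or 5. It gave 2 without CHOW replicate 2 or 3 (9.2% and 9.32% of all genes called) or 2w-WD replicate 3 or 5, and 4 without 2w-WD replicate 1. The number of all genes called moved as well, from 164 of 11925 without 14w-WD replicate 1 to 3536 without 2w-WD replicate 1. The member counts are to be read against that. None of the 10 passed with each array centred on its median (9.78% of all genes called), with no filter on dim genes (5.94%) or with only these 2 groups fitted (12.2%). None passed with the share of bright probe sets as a covariate, which left 0 of all genes called as well. In 2w-WD against CHOW, the differences without 2w-WD replicate 4 were -0.39 for Lipa, -0.20 for Lamp1, -0.15 for Psap, -0.53 for Tfe3 and -0.026 for Mitf. All 3 members called in 14w-WD against 2w-WD kept their calls with the mean of the heart muscle genes as a covariate.

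**Figure D2:**
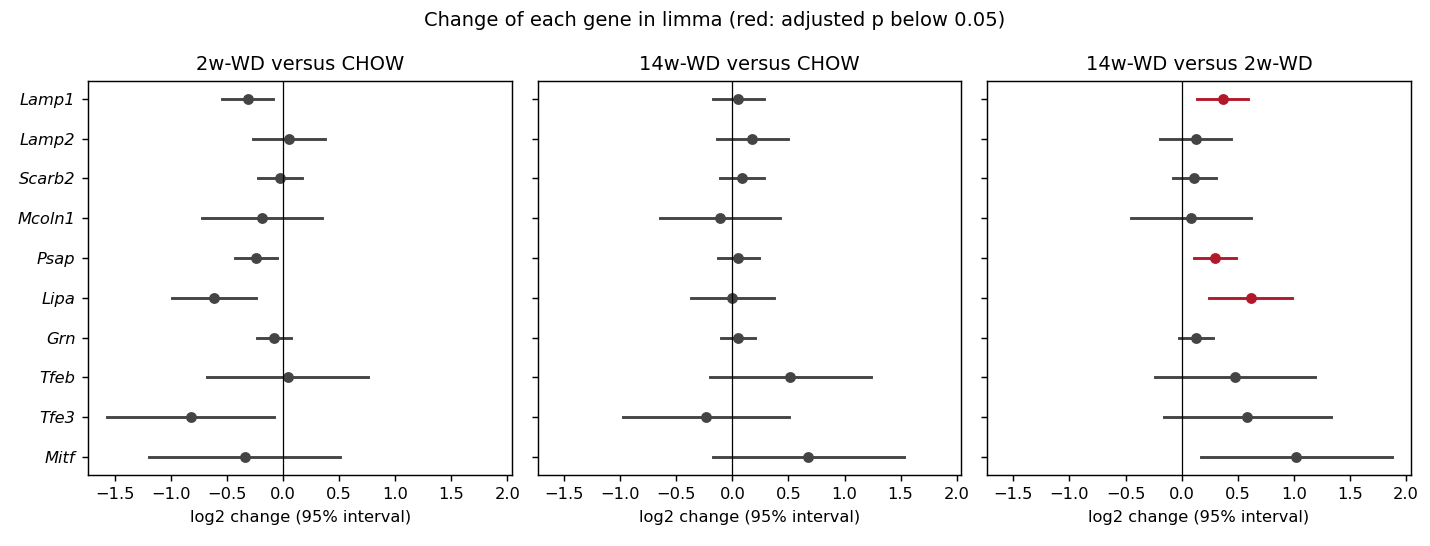
Log2 change (horizontal axis) of each gene in 2w-WD versus CHOW, 14w-WD versus CHOW and 14w-WD versus 2w-WD, with limma's 95% interval. Red marks an adjusted p below 0.05, reached by Lamp1, Psap and Lipa in 14w-WD versus 2w-WD and by no gene in the other panels.

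None of the 3 transcription factors passed in any comparison. Tfeb was dim, at 6.67, 5.48, 5.48, 5.14 and 4.75 for CHOW, 6.24, 5.10, 4.54, 6.12 and 5.74 for 2w-WD, and 6.08, 5.98, 6.23, 6.06 and 5.76 for 14w-WD. Many of these levels lie near the filter of 5.66, and the 14w-WD arrays were the most alike. Its group means were 5.51 (CHOW), 5.55 (2w-WD) and 6.02 (14w-WD), so Tfeb passed the filter only through 14w-WD, where it was highest. Its difference was 0.47 in 14w-WD against 2w-WD (interval -0.24 to 1.19, adjusted p = 0.338), 0.52 in 14w-WD against CHOW (adjusted p = 0.464) and 0.042 in 2w-WD against CHOW (interval -0.67 to 0.76).

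Tfe3, a factor that can stand in for TFEB at lysosome genes, had 10.92, 10.91, 10.59, 10.75 and 9.68 for CHOW, 10.04, 9.40, 10.57, 8.60 and 10.14 for 2w-WD, and 10.54, 10.55, 10.25, 9.97 and 10.37 for 14w-WD. The lowest values were those of 2w-WD replicates 2 and 4, and the groups overlapped, with CHOW replicate 5 well below the rest of its group. The difference between 2w-WD and CHOW was -0.82 (SE 0.35, adjusted p = 0.507), and that between 14w-WD and 2w-WD 0.59 (interval -0.16 to 1.33, adjusted p = 0.254), or 0.30 without 2w-WD replicate 4 (adjusted p = 0.545).

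Mitf, known as the regulator of melanocytes and also used by macrophages and osteoclasts, had 9.39, 8.35, 7.59, 8.22 and 7.87 for CHOW, 8.66, 7.78, 8.57, 6.68 and 8.03 for 2w-WD, and 9.18, 9.38, 8.71, 8.47 and 9.07 for 14w-WD. The 14w-WD arrays were high, but 2w-WD replicates 1 and 3 reached into their range, and CHOW replicate 1 was as high as the highest of them. The difference of 1.02 between 14w-WD and 2w-WD was the largest of the 10 and did not pass (SE 0.40, interval 0.17 to 1.87, adjusted p = 0.0978). Leaving out 2w-WD replicate 4 gave 0.70 (adjusted p = 0.240). In 14w-WD against CHOW it was 0.68 (interval -0.17 to 1.53, adjusted p = 0.415). Of 6 melanocyte markers, Dct and Slc45a2 were below the filter. The mean of all 6 was 5.57 ± 0.29 (CHOW), 5.88 ± 0.51 (2w-WD) and 5.67 ± 0.40 (14w-WD), with SD and n = 5 each. All 4 that were tested lay below 0 in 14w-WD against 2w-WD. Tyr passed limma's test as lower, at 5.99 in 14w-WD and 6.68 in 2w-WD (difference -0.69, adjusted p = 0.0322). The highest level of Mlana was 8.49 among the 14w-WD arrays and 9.33 among those of 2w-WD. Of 6 mast cell markers, Tpsb2 was below the filter. Among the 5 tested, 1 lay above 0 in 14w-WD against 2w-WD, and Kit passed limma's test as lower, where 1.15% of all genes did. The part of melanocytes or mast cells in the levels of Mitf was not tested.

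**Figure D3:**
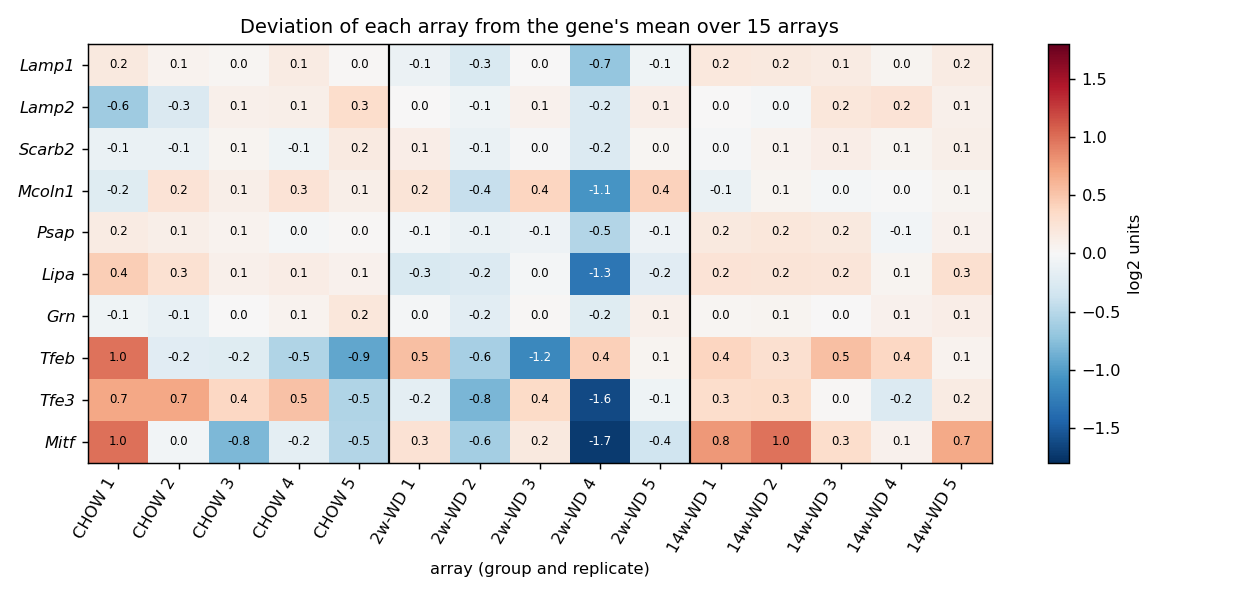
Difference of each array from the gene's mean over the 15 arrays, in log2 units, with arrays across and genes down, and red above and blue below the mean. The column of 2w-WD replicate 4 is blue for every gene except Tfeb.

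Several genes had further probe sets, and these dimmer probe sets differed more. Of the 11 above the filter, 10 lay above 0 in 14w-WD against 2w-WD and 3 passed as higher, where 11.2% of 22519 probe sets passed. Their median difference was 1.13, beside 0.33 for the 10 brightest. In 2w-WD against CHOW all 11 lay below 0, with a median of -0.64 and 0 called (0% of probe sets by limma), and in 14w-WD against CHOW 8 lay above 0 with a median of 0.36 and 0 called (0.00444% of probe sets). At an unadjusted p under 0.05, limma gave 5 of the 11 in 2w-WD against CHOW (9.61% of probe sets) and 1 in 14w-WD against CHOW (17% of probe sets). Over 4320 other genes, the median difference of the 6504 further probe sets from the brightest of their gene was -1.68 ± 0.047 in 14w-WD and -1.56 ± 0.15 in 2w-WD (SD, n = 5 each; exact permutation p = 0.135, two-sided, adjusted 0.270), so in general the further probe sets were not relatively higher in 14w-WD.

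The progranulin gene gave the widest disagreement. Probe set 1448148_at of Grn read 10.55, 9.14, 8.91, 10.03 and 8.11 for CHOW, 8.80, 7.32, 8.19, 6.56 and 8.45 for 2w-WD, and 10.91, 10.70, 10.49, 9.98 and 10.47 for 14w-WD. Every 14w-WD array lay above every 2w-WD array, by 2.65 on the log2 scale on average (SE 0.47, adjusted p = 0.0101), and by 2.32 without 2w-WD replicate 4 (adjusted p = 0.0328). The other probe sets of Grn, 1438629_x_at and 1456567_x_at, differed by 0.13 and 0.084 between the same groups, and neither passed. Which of them follows the transcript was not tested.

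Lamp2 probe set 1416343_a_at was 1.55 higher in 14w-WD than in 2w-WD (SE 0.38, adjusted p = 0.0231), against 0.13 for the brightest one. Lipa probe set 1423140_at was 1.55 higher (SE 0.46, adjusted p = 0.0411), while 1423141_at differed by 0.51 (adjusted p = 0.277). Psap probe set 1421813_a_at differed by 1.53 (adjusted p = 0.0608) and Scarb2 probe set 1460235_at by 1.45 (adjusted p = 0.0826), neither past the test. Without 2w-WD replicate 4, only the Grn probe set among these 11 passed, where 1.78% of probe sets did. Lamp2 probe set 1416343_a_at then differed by 1.45 (adjusted p = 0.0665) and Lipa probe set 1423140_at by 1.26 (adjusted p = 0.110). Lamp1, Tfeb and Tfe3 had 1 probe set each, and the second of Mitf, 1422025_at, differed by -0.11.

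**Figure D4:**
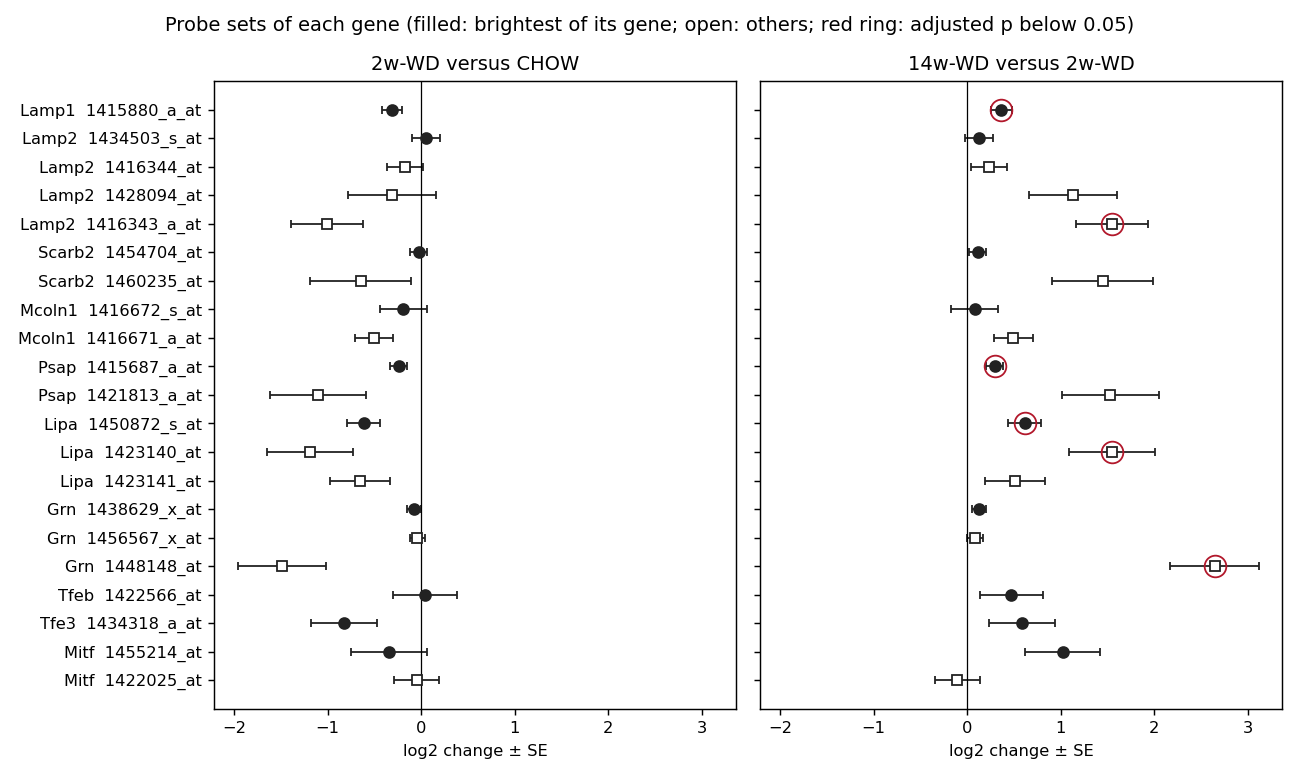
Log2 change ± SE (horizontal axis) of the 21 probe sets above the filter, in 2w-WD versus CHOW and in 14w-WD versus 2w-WD. Filled points are the brightest of a gene, open squares the others, and a red ring marks an adjusted p below 0.05. The open squares mostly lie farther from 0 than the filled point of the same gene.

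Across the 15 arrays the 45 pairs of members correlated between -0.44 and 0.97, with a median Pearson r of 0.50, and 38 lay above 0. Lamp1 and Lipa were the closest pair (0.97), followed by Psap and Lipa (0.94) and Lamp1 and Psap (0.93), and Lamp2 and Tfeb were the most opposed (-0.44). All points share the arrays, their brightness and the low array of 2w-WD. Among all genes tested, those most like Lipa over the 15 arrays were Lamp1 (0.97), Atp6v1b2 (0.97), a subunit of the proton pump that acidifies lysosomes, Mbtps2 (0.95), the protease that releases SREBP factors, Rab7b (0.95), a small GTPase of late endosomes, and Ctsk (0.95), the lysosomal protease cathepsin K.

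Genes of 5 lists on the same processes were compared between 14w-WD and 2w-WD, to be read against 11.2% of all genes called, 10.1% as higher, and a median of 0.23 over all genes. Here rose and fell stand for called higher and lower in 14w-WD than in 2w-WD. Of 20 tested genes of the lysosome membrane, 4 rose and 0 fell, with a median difference of 0.69. They were Tmem192 (1.59), Slc38a9 (1.59), an amino acid sensor that speaks to mTORC1, Clcn7 (1.54), a chloride and proton exchanger, and Tpcn2 (1.42), a cation channel. Without 2w-WD replicate 4, 0 of the 20 passed by limma, where 2.18% of all genes did. The 4 named here then had adjusted p from 0.0752 for Slc38a9 to 0.0888 for Clcn7. In that fit 10 of the 20 had an unadjusted p under 0.05 by limma, and the share of all genes under it was not counted. With all arrays that share was 32.1%, but that is another fit, so whether 10 of 20 stands out cannot be said.

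Of 13 tested genes of lysosomal lipid digestion, 2 rose and 0 fell, a share near that of all genes, with a median of 0.39. Galc, which cleaves galactosylceramide with the help of a saposin, was 1.72 higher (adjusted p = 0.0270), at 9.32 ± 0.49 in 14w-WD and 7.61 ± 1.08 in 2w-WD (SD, n = 5 each). Npc2, the partner of LIPA in cholesterol export, was 0.23 higher (adjusted p = 0.0367), at 14.58 ± 0.033 in 14w-WD and 14.35 ± 0.17 in 2w-WD (SD, n = 5 each). Npc2 alone passed without 2w-WD replicate 4.

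Of 22 tested genes that control TFEB, 4 rose and 0 fell, with a median of 0.60. Fnip1, which acts with folliculin on the GTPases that hold mTORC1 at the lysosome, was 1.89 higher (adjusted p = 0.0117), and Ppp3r1, the regulatory subunit of calcineurin, 1.45 higher (adjusted p = 0.0113). Rheb, the direct activator of mTORC1, was 1.11 higher, and Lamtor3, part of the scaffold that anchors mTORC1, 0.66 higher. Rheb and Lamtor3 are known to restrain TFEB through mTORC1, and calcineurin to release it. Fnip1, Ppp3r1 and Lamtor3 passed without 2w-WD replicate 4, and Rheb did not (adjusted p = 0.0502).

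Of 23 tested autophagy genes, 6 rose and 1 fell, with a median of 0.61. Among those that rose were Gabarapl2 (1.21), Gabarap (1.43), Atg12 (1.48) and Atg7 (1.07), which form or attach the ubiquitin-like proteins of the autophagosome. The gene that fell, outside the rule for naming and picked after its value was seen, was Wipi2 (-0.84, adjusted p = 0.0400), which binds the membrane of the forming autophagosome. Without 2w-WD replicate 4, 1 of the 23 passed, Gabarapl2. Of 9 tested partners of progranulin and prosaposin, 3 rose and 0 fell, with a median of 0.55: Ctsl (0.55) and Ctsd (0.55), cathepsins that cut these precursors, and Gnptab (1.50), which makes the mannose phosphate tag for lysosomal enzymes. Ctsd and Ctsl passed without 2w-WD replicate 4.

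No gene of these 5 lists passed in either comparison with CHOW by limma, where 24 of their 87 genes had an unadjusted p under 0.05 in 2w-WD against CHOW (9.76% of all genes) and 15 had one in 14w-WD against CHOW (15.9% of all genes). Their medians lay between -0.35 and -0.21 in 2w-WD against CHOW, beside -0.097 for all genes, and between 0.069 and 0.30 in 14w-WD against CHOW, beside 0.16 for all genes. Of the genes named from the lists, Ctsl and Npc2 had every 2w-WD array below every array of both other groups. Ctsl lay at 13.53 ± 0.038 (CHOW), 13.14 ± 0.31 (2w-WD) and 13.69 ± 0.063 (14w-WD), with SD and n = 5 each. These genes were named by smallest adjusted p, so that choice favours a lack of overlap. Of all genes, 0.83% had 2w-WD wholly below CHOW and 7.06% had it wholly below 14w-WD. The share with both was not counted.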

How the data were processed

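Foam cells of 3 diet groups were measured on 15 arrays. Per the labels' protocols, RNA was extracted with a PicoPure kit, amplified with RiboAmp HS and labelled with biotin. The authors deposited 1 linear intensity per probe set and array, with its summarisation and normalization not given in the sources used here. Of 45037 probe sets, 34945 had 1 gene in GEO's platform annotation, 932 had several and 9160 were unnamed here. Of those with 1 gene, 34741 matched RefSeq genes of GRCm38.p6 by gene number, with 0 symbols updated.

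Levels are log2(intensity + 16). Each of 18193 genes was represented by its brightest probe set, and 11925 genes whose mean reached the median over probe sets (log2 5.66, equal to an intensity of 34.6) were kept. limma 3.58.1 in R 4.3.3 was run (lmFit, eBayes with a trend) on all 15 arrays, two-sided, with Benjamini-Hochberg adjustment over all genes tested, and a gene passed at an adjusted p under 0.05. The fit was tested on simulated data in which genes varied independently, so shifts shared by many genes on an array were not covered. The number of arrays limits the precision. All columns of the table belonged to the samples. The 10 genes were all named. From each pathway list, at most 4 genes that passed were named, by smallest adjusted p, and for Lipa the 5 most correlated genes. The genes and lists were chosen with earlier results of these data known. Probe sets fitted singly, the gap between probe sets as a covariate, and list counts without 2w-WD replicate 4 were added after the data were seen. Promoters came from RefSeq windows, of which 16 belonged to the 10 genes.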

Additional observations from a re-analysis of the deposited data

Results flagged for a closer look

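Among the 30 sets of 5 arrays, 10 genes in 3 groups, 3 held an array far from the others by Dixon's test (critical value 0.71), where chance gives 1.5. For Psap in 2w-WD, replicate 4 was lowest at 13.46 with the nearest array at 13.88, a ratio of gap to range of 0.871. For Lipa in 2w-WD, the same array was lowest at 12.17 with the nearest at 13.20, a ratio of 0.807. For Tfe3 in CHOW, replicate 5 was lowest at 9.68 with the nearest at 10.59, a ratio of 0.736.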

How the results depend on the processing

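The 5 arrays a group and the brightness of the probe sets limit what could be seen. Over 12 alternative settings, 316 of 357 member differences kept direction and side of the threshold, 17 fell below it, 4 came past it and 20 turned sign; leaving out 1 array at a time gave 410 of 450, 21, 1 and 18. The number of members called in 14w-WD against 2w-WD, 3 in the fit reported, was 1 after quantile normalization (Lipa), where 8.13% of all genes passed. It was 0 with arrays centred on the median (9.78% of all genes), with no filter (5.94%) and with only the 2 groups fitted (12.2%). It was also 0 with the share of bright probe sets as a covariate (0%) and with the gap between probe sets as a covariate (0.0922%, added after the data were seen). It was 5 with the mean of all probe sets of a gene (with Lamp2 and Grn), where 14.9% of all genes passed, and 0 to 4 when 1 array was left out. Array weights gave 4, with Mitf, where 32.2% of all genes passed. In 14w-WD against CHOW they gave 1, Mitf at 0.96 (adjusted p = 0.0299), where 18.7% of all genes passed. Adjusted p over all settings ran from 0.0100 to 0.728 for Lamp1, 0.00680 to 0.757 for Psap and 0.00759 to 0.716 for Lipa. All genes called in 14w-WD against 2w-WD numbered 164 to 3536 when 1 array was left out, 0 with the bright share, 11 with the gap, 798 with a stricter filter and 3839 with array weights, beside 1338. In 14w-WD against CHOW, where 1 gene was called, they ran from 0 to 2234, the latter with array weights. The cause of these shifts was not tested.

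With the replicate number as a block, members called stayed at 3, and all genes called in 14w-WD against 2w-WD came to 2122. Deviations from the group mean of 15 same-numbered pairs correlated between -0.17 and 0.48, with 7 above 0.1. Their mean was 0.095, beside -0.023 for 60 other pairs. Whether samples of the same number share anything was not tested.

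Signs turned in 2w-WD against CHOW for Scarb2 (0.010 with quantile normalization, 0.00159 with centring), Grn (0.00374 with quantile normalization), Tfeb (-0.091 with array weights, -0.15 with heart muscle as a covariate) and Lamp2 (-0.36 with the mean of probe sets). In 14w-WD against CHOW they turned for Lipa (-0.047 with quantile normalization, -0.046 with centring, -0.033 with heart muscle, -0.19 with the bright share, -0.21 with the gap), Lamp1 (-0.065 with the bright share, -0.070 with the gap) and Psap (-0.062 and -0.051 with the same). In 14w-WD against 2w-WD they turned for Mcoln1 (-0.10 with quantile normalization, -0.079 with array weights, -0.075 with the bright share, -0.13 with the gap) and Tfeb (-0.074 with the bright share). With 1 array left out, 2w-WD against CHOW ran from -0.087 to 0.15 for Lamp2, -0.068 to 0.025 for Scarb2, -0.32 to 0.052 for Mcoln1 and -0.15 to 0.33 for Tfeb. It ran from -0.030 to 0.060 for Lipa in 14w-WD against CHOW and from -0.16 to 0.21 for Mcoln1 in 14w-WD against 2w-WD.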
